A study of Mus musculus with 16 samples.

Results

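A group of 9 mouse genes that carry or restrain interferon signals was followed across libraries described as dendritic cells sorted from melanomas. Markers of other cells were present in them as well. The genes were the receptor chains Ifngr1, Ifngr2, Ifnar1 and Ifnar2, the kinases Jak1, Jak2 and Tyk2, and the inhibitors Socs1 and Socs3. They were taken as the receptor chains, receptor kinases and inhibitors of the pathway, listed by symbol and not by a measured threshold, and all 9 of the 32697 genes in the count table were found and passed the filter on low counts. None differed beyond the spread between replicates after either deletion. Jak1 was 1.77-fold higher in the Irf1 controls than in the Ikbkb controls, a comparison in which 12.6% of all genes tested were called. That call was lost on leaving out any of several single libraries. For 7 of the 9 genes the highest value of all 16 libraries was in a single Ikbkb control library, as for 15.8% of all genes tested.

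The libraries came from cells described as sorted type 1 conventional dendritic cells (cDC1s), which take up tumour antigen and present it to CD8 T cells, out of tumours grown from YUMM1.7, a mouse melanoma line. PolyA RNA was sequenced in 4 groups of 4 libraries. The genotype labels are IKKbdeltaXCR1 (Ikbkb-deleted), IKKbFF (Ikbkb control, with floxed Ikbkb), IRF1deltaXCR1 (Irf1-deleted) and IRF1FF (Irf1 control, with floxed Irf1). Ikbkb encodes IKK-beta, the kinase that activates canonical NF-kB. The product of Irf1 is an interferon-induced transcription factor. The deletion is named after Xcr1, a chemokine receptor gene of cDC1s, so other cells of the tumour and its host keep both genes as far as the labels say. The growth and treatment notes give female mice and name the Ikbkb mice only; the Irf1 groups therefore rest on the genotype label. No treatment was given beyond the engrafted tumour cells, and no age is given in the labels. No label ties a replicate to its own animal; the p-values given here therefore reflect library-to-library spread alone, which may be technical.

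Interferon-gamma binds a receptor of Ifngr1 and Ifngr2, to which Jak1 and Jak2 are bound. Type I interferons bind Ifnar1 and Ifnar2, which carry Tyk2 and Jak1. The kinases phosphorylate STAT proteins, which enter the nucleus and switch on target genes, among them the Socs genes, whose products bind the receptors or the kinases and dampen the signal. In cDC1s, type I interferon signalling is known to support cross-presentation to CD8 T cells.

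Total counts per library ran from 16478671 to 27433818, and mitochondrial genes took 0.699% to 3.15%. Ikbkb had 28.5 to 46.3 CPM (read counts scaled to a common library size, with TMM factors) in the Ikbkb-deleted libraries and 44.5 to 121 CPM in their controls, and Irf1 had 98.6 to 299 CPM in the Irf1-deleted libraries and 141 to 268 CPM in theirs, so the libraries of both deletions overlapped their controls for the gene deleted. The library labelled Irf1-deleted replicate 1 had 299 CPM of Irf1, above all 4 Irf1 controls, which goes against its label as far as a count over the whole gene can show; every library is named here by its label. Every library held the cDC1 markers Xcr1, at 12.1 to 318 CPM, and Clec9a, at 0.603 to 67.6 CPM. The summed level of 15 cDC1 markers was 9826 CPM in Ikbkb-deleted replicate 1 and 9466 CPM in Ikbkb control replicate 3, against 899.98 to 4117 CPM in the other 14 libraries. Markers of other cells were present as well: 16 fibroblast and endothelium markers summed to 6774 to 35445 CPM and 16 macrophage and monocyte markers to 3350.1 to 15163 CPM. In such bulk samples, fewer cells of a type and less RNA per cell cannot be told apart.

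By level per kilobase of exon, Ifngr1 stood first and Socs1 last among the 9 genes. Over the 16 libraries Ifngr1 averaged 79.0 ± 32.7 CPM per kb, Socs3 60.1 ± 20.8, Ifngr2 45.3 ± 7.47, Jak1 37.6 ± 13.5, Ifnar2 21.7 ± 3.75, Ifnar1 17.9 ± 4.65, Jak2 17.01 ± 8.53, Tyk2 11.2 ± 9.08 and Socs1 9.35 ± 3.68 (SD, n = 16). The interferon-gamma receptor chains thus stood above the type I receptor chains, and Jak1 above the other kinases. Among all 16040 genes tested, Ifngr1 ranked at percentile 95.4 of level per kb and Socs1 at percentile 68.3. Neighbours in this order were not all apart: Ifngr1 exceeded Socs3 in 14 of 16 libraries and Ifnar2 exceeded Ifnar1 in 12, but Ifnar1 exceeded Jak2 in 9 of 16 and Tyk2 exceeded Socs1 in 8 of 16. Jak1 had rank 3 in the Irf1 controls, at 48.9 ± 9.18 CPM per kb, and rank 4 in the Ikbkb controls, at 27.6 ± 9.17 CPM per kb (SD, n = 4 each). With the longest transcript as the length, Jak1 averaged 55.3 CPM per kb over all libraries and stood above Ifngr2 at 46.0, and Ifnar1 averaged 27.2 and stood above Ifnar2 at 23.7.

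**Figure D1:**
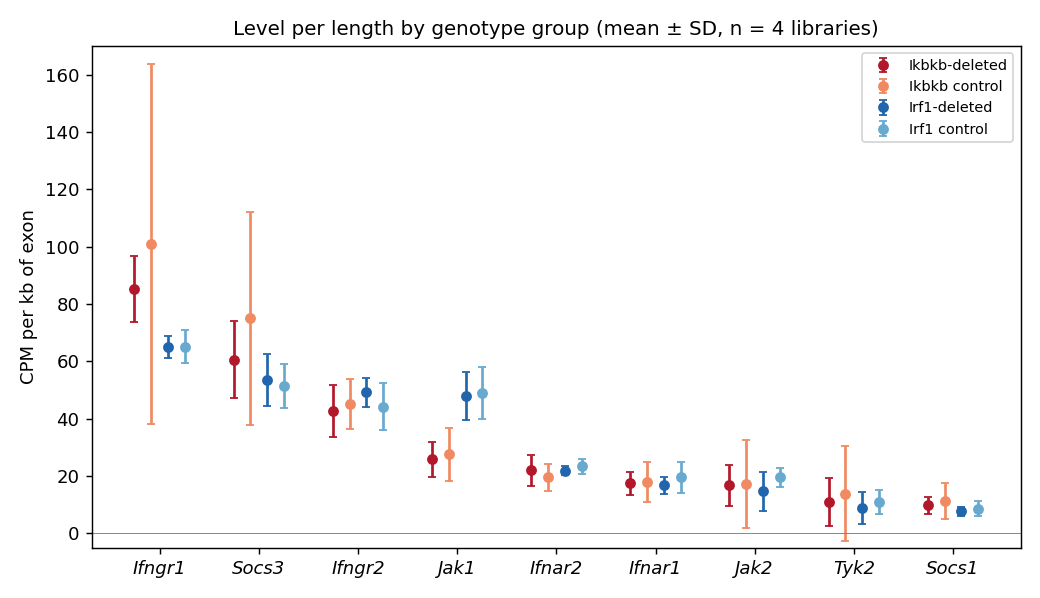
Level per length of each gene (CPM per kb of exon, linear axis) in the 4 genotype groups; points are means and bars SD over 4 libraries. Ifngr1 and Socs3 lie at the top in every group, and Jak1 at 47.9 and 48.9 CPM per kb in the Irf1-deleted and Irf1 control groups stands above 25.8 and 27.6 in the Ikbkb-deleted and Ikbkb control groups.

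After either deletion, edgeR's quasi-likelihood test called 0 of the 9 genes at an adjusted p under 0.05, and 0% of all 16040 genes tested passed that threshold in either comparison. Without adjustment, 769 genes (4.79%) had p under 0.05 for the Ikbkb deletion and 419 (2.61%) for the Irf1 deletion, none of them one of the 9. DESeq2 called 38 and 6 genes, again none of the 9, and limma voom 0 and 0. The libraries of deleted and control groups overlapped for all 9 genes in both comparisons; of all genes tested, 0.754% were higher and 0.948% lower without overlap after Ikbkb deletion, and 1.26% and 1.63% after Irf1 deletion. The smallest unadjusted p of edgeR was 0.280 for Socs3 after Ikbkb deletion and 0.416 for Ifnar1 after Irf1 deletion, and the adjusted p was 1 for every gene in both. No gene was called for the difference between the deletions either, where 455 genes (2.84%) had an unadjusted p under 0.05 and the smallest among the 9 was 0.347, for Ifnar2. Leaving out the library labelled Irf1-deleted replicate 1 turned no sign among the 9 changes after Irf1 deletion, and none was called by edgeR. Tyk2 was then at −0.77 and Jak2 at −0.75 on the log2 scale. The cDC1 markers fell in the same fit, to 12 of 15 negative from 2 of 15 with all libraries. Nor was any gene called for the mean of both deletions, where 842 genes (5.25%) had an unadjusted p under 0.05.

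Ifngr1 lies on chromosome 10 (ENSMUSG00000020009, mm10, 19591949 to 19610229, plus strand) and encodes the chain that binds interferon-gamma. Its level was 291, 233, 222 and 224 CPM in the Ikbkb-deleted libraries against 213, 223, 552 and 162 CPM in the Ikbkb control libraries. The Irf1-deleted libraries had 199.7, 181, 174 and 184 CPM and the Irf1 controls 192, 205, 167 and 177 CPM. The value of 552 CPM in Ikbkb control replicate 3 stands far above the other 15, and the 8 libraries of the Irf1 set lie within a narrow band. The log2 fold change was −0.24 (SE 0.28) for Ikbkb deletion and −0.005 (SE 0.28) for Irf1 deletion by edgeR, with 95% intervals of the fold of 0.557 to 1.28 and 0.658 to 1.51.

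Ifngr2 encodes the signalling chain of the same receptor, on chromosome 16 (ENSMUSG00000022965, 91547072 to 91565623, plus strand). Its values were 194, 153, 116 and 181 CPM in the Ikbkb-deleted libraries, against 133, 187, 206 and 153 CPM in the Ikbkb controls, and 160.0, 202, 183 and 196 CPM in the Irf1-deleted libraries, against 181, 149.7, 202 and 134 CPM in the Irf1 controls. All 16 values lie within a narrow range, from 116 to 206 CPM, and the groups overlap. The log2 fold change was −0.08 (SE 0.19) for Ikbkb deletion and 0.15 (SE 0.19) for Irf1 deletion. Intervals of the fold ran from 0.717 to 1.26 and from 0.840 to 1.47.

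The type I receptor genes lie upstream of Ifngr2 on the same strand of chromosome 16, in the order Ifnar2 (ENSMUSG00000022971, 91372783 to 91405589), Il10rb, Ifnar1 (ENSMUSG00000022967, 91485238 to 91507441) and Ifngr2. Ifnar1, which binds Tyk2, had 137, 84.4, 90.4 and 102 CPM in the Ikbkb-deleted libraries and 96.5, 71.0, 166 and 92.4 CPM in their controls. In the Irf1 set it had 121, 79.2, 101 and 96.7 CPM in the deleted libraries and 146, 87.5, 143 and 88.2 CPM in the controls. Both Irf1 control values above 140 CPM exceed all 4 Irf1-deleted values, but the other 2 do not. Folds were 0.972 (95% interval 0.659 to 1.43) after Ikbkb deletion and 0.858 (0.582 to 1.27) after Irf1 deletion.

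Ifnar2, the chain with the higher affinity for the ligand, had 99.4, 69.8, 63.2 and 60.04 CPM in the Ikbkb-deleted libraries and 50.2, 59.7, 86.3 and 63.6 CPM in the Ikbkb controls. Its values in the Irf1 set were 72.0, 80.3, 67.6 and 71.0 CPM in the deleted libraries and 68.9, 77.7, 73.9 and 90.0 CPM in the controls. It was the only one of the 9 genes with a positive change after Ikbkb deletion, at a fold of 1.13 (95% interval 0.847 to 1.496), and its fold after Irf1 deletion was 0.937 (0.705 to 1.25). Of its exon bases, 315 (9.5%) are shared with Gm21970 on the same strand, so its counts are uncertain to that extent. The spread of log2 level within groups was small for Ifnar2 and Ifngr2, with SDs of 0.25 and 0.26, at percentiles 8.28 and 10.02 of all tested genes. Although they are neighbours, these receptor genes did not follow each other closely over the 16 libraries: Spearman's rho, given as a description, was 0.21 for Ifnar1 with Ifnar2 and 0.36 for Ifnar1 with Ifngr2.

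**Figure D2:**
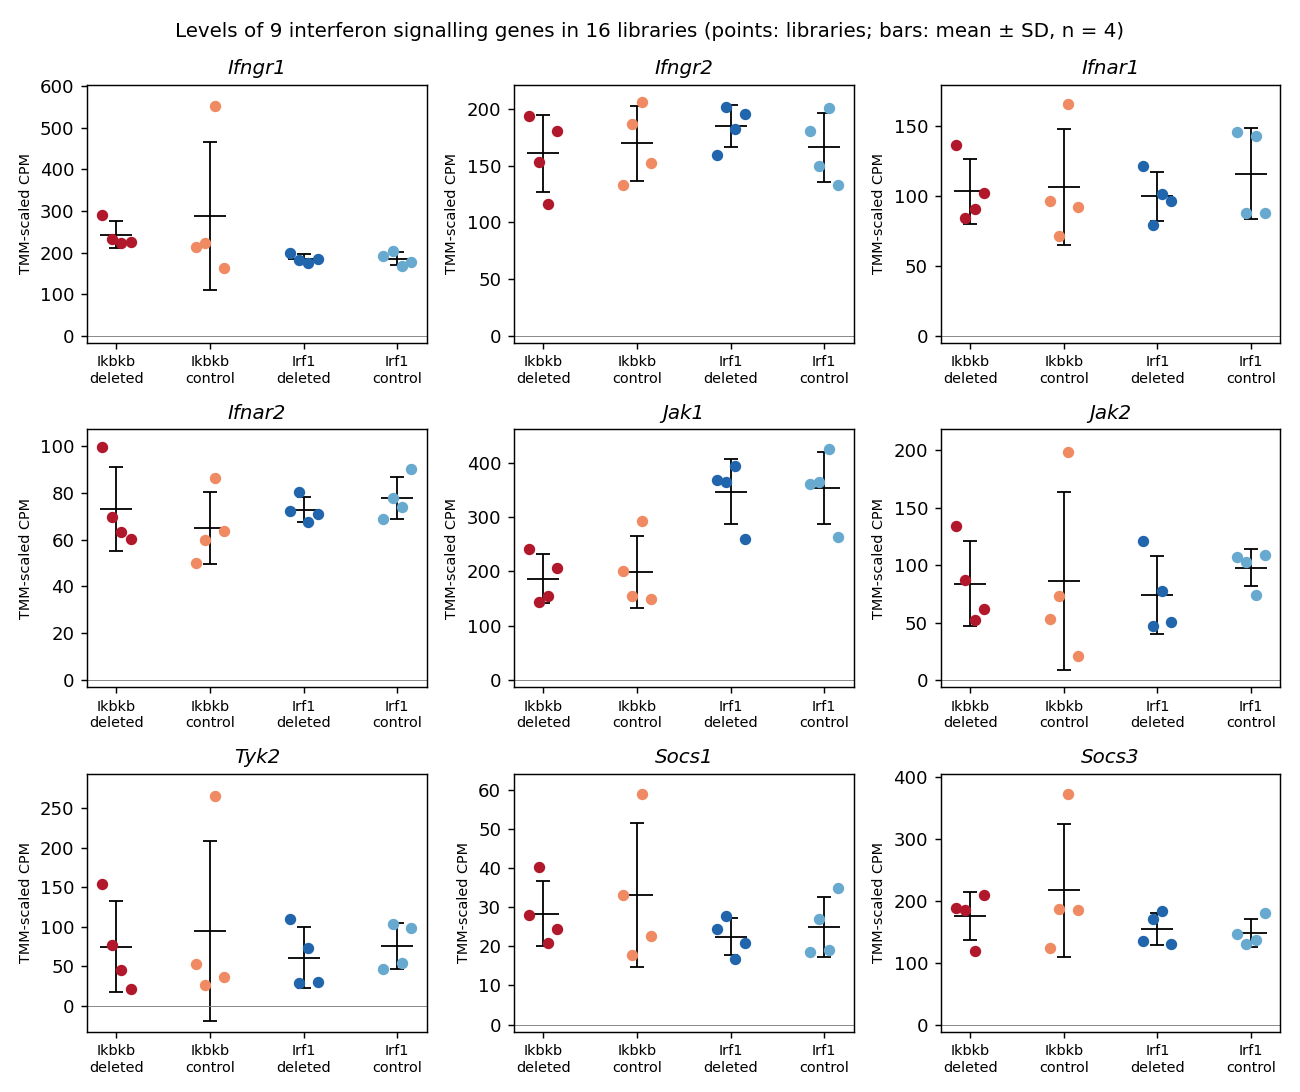
TMM-scaled CPM (linear axis) of each gene in the 4 genotype groups, deleted left of control in each set; points are libraries in the order of replicate, and bars are mean ± SD over 4. The deleted and control libraries overlap in all 9 panels, Ikbkb control replicate 3 is the highest point of its group throughout, and for Jak1 6 of the 8 Irf1-set libraries lie above all 8 Ikbkb-set libraries.

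Among the kinases, Jak1, which serves both interferon receptors and many other cytokine receptors, lies on chromosome 4 (ENSMUSG00000028530, 101152367 to 101265282, minus strand). It had 240.5, 144, 155 and 206 CPM in the Ikbkb-deleted libraries and 201, 154, 292 and 149.6 CPM in the Ikbkb controls, and 368, 364, 395 and 259 CPM in the Irf1-deleted libraries and 361, 364, 425 and 264 CPM in the Irf1 controls. Within each set the deleted and control values cover the same range. The fold was 0.936 (95% interval 0.661 to 1.33) for Ikbkb deletion and 0.980 (0.692 to 1.39) for Irf1 deletion.

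Jak2, the partner of Ifngr2, lies on chromosome 19 (ENSMUSG00000024789, 29251828 to 29313080, plus strand). Its level was 134, 87.3, 52.6 and 61.6 CPM in the Ikbkb-deleted libraries and 52.8, 73.3, 198 and 21.0 CPM in the Ikbkb control libraries. In the Irf1-deleted libraries it was 121, 46.9, 77.8 and 50.6 CPM and in the Irf1 controls 107, 102, 73.8 and 109 CPM. The Ikbkb controls hold both the highest and the lowest of the 16 values. Fold changes of 0.973 (95% interval 0.459 to 2.06) after Ikbkb deletion and 0.756 (0.357 to 1.60) after Irf1 deletion therefore carry wide intervals.

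Tyk2, the partner of Ifnar1, lies on chromosome 9 (ENSMUSG00000032175, 21104068 to 21131243, minus strand). It had 154, 76.6, 45.9 and 21.9 CPM in the Ikbkb-deleted libraries against 53.4, 26.3, 265 and 36.3 CPM in the Ikbkb controls, and 109.7, 29.2, 73.6 and 30.4 CPM in the Irf1-deleted libraries against 46.9, 103, 54.4 and 98.6 CPM in the Irf1 controls. It varied most of the 9 genes within groups, with an SD of 1.099 on the log2 scale, at percentile 74.1 of all tested genes. Folds of 0.784 (95% interval 0.276 to 2.23) and 0.801 (0.282 to 2.28) were measured for the Ikbkb and Irf1 deletions. The antisense gene 1700084C06Rik covers 554 bp (8.1%) of its exons, and since no strand setting is given, reads of the pair cannot be told apart.

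Jak2 and Tyk2 had the closest profiles of all 36 pairs of the 9 genes, with Spearman's rho of 0.83 and Pearson's r of 0.77 over 16 libraries. The pair was picked as the highest of 36, so these values describe the libraries and carry no test. Both genes were highest in the libraries with the largest cDC1 marker sums, as described further on.

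The inhibitors differed in level and in promoter sequence. The 250 bases before each transcription start are shown because they hold the motifs through which interferon-driven factors are known to act, with matches in capitals (RefSeq, GRCm38.p6, minus strand, 5′ to 3′; Socs1 chr16:10785537-10785786, Socs3 chr11:117969367-117969616).
Socs1: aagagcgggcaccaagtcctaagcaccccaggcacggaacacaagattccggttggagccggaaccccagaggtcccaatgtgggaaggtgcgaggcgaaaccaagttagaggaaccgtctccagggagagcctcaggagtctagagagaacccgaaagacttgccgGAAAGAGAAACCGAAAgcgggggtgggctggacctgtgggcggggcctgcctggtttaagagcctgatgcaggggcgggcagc
Socs3: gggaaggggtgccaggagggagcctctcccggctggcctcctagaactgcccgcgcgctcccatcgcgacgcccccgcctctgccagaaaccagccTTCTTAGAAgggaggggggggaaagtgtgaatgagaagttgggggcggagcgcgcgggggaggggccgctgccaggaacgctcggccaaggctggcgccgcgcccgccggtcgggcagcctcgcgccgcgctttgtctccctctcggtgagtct
In Socs1 the capitals mark overlapping matches to a motif of interferon regulatory factors, GAAA repeated after any 2 bases, with first bases at −83 and −77 from the start. The Socs3 capitals mark TTCNNNGAA, the palindrome of STAT proteins, at −154 from the RefSeq start. By the gene coordinates given below, Socs3 extends to 117970047 on the minus strand, so this window lies inside the annotated gene. Searched on both strands of 300-base windows (250 bases before to 50 after the start), the GAAA repeat was present in 3.44% and TTCNNNGAA in 8.3% of 32851 RefSeq promoters. Of the 9 genes, Socs1 alone held the first motif; Socs3, Ifnar1 and Ifnar2 held the second. A kappa-B-like motif, GGG and TTTCC parted by any 2 bases and present in 1.63% of promoters, was found in Ifngr2 alone. A match describes letters in a window and not a bound factor.

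Socs1, which inhibits the JAK kinases directly, lies on chromosome 16 (ENSMUSG00000038037, 10782240 to 10785536, minus strand). Its level was 27.9, 40.2, 20.9 and 24.5 CPM in the Ikbkb-deleted libraries and 33.3, 17.8, 58.8 and 22.5 CPM in the Ikbkb controls. The Irf1-deleted libraries had 24.4, 27.8, 16.8 and 20.8 CPM and the Irf1 controls 18.5, 26.9, 19.1 and 34.9 CPM. The libraries overlap in both comparisons. Its fold was 0.857 (95% interval 0.514 to 1.43) for Ikbkb deletion and 0.903 (0.541 to 1.51) for Irf1 deletion.

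Socs3, an inhibitor that acts mainly on receptors of the gp130 family, lies on chromosome 11 (ENSMUSG00000053113, 117966079 to 117970047, minus strand). It had 188, 184, 119 and 209 CPM in the Ikbkb-deleted libraries and 123, 186, 372 and 185 CPM in the Ikbkb control libraries. In the Irf1-deleted libraries it had 135, 169.8, 183 and 130.2 CPM and in the Irf1 controls 146, 131, 136 and 180.2 CPM. One control value, 372 CPM, lies far above the other 15. The fold was 0.808 (95% interval 0.539 to 1.21) after Ikbkb deletion and 1.04 (0.696 to 1.56) after Irf1 deletion.

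The direction of the changes after Ikbkb deletion depended on single libraries, above all on 1 control library. The log2 fold change was negative for 8 of the 9 genes, where 52.2% of all genes tested were negative, and for 7 of 9 after Irf1 deletion, where 51.7% were. Ikbkb control replicate 3 was the highest of its group for all 9 genes and the highest of all 16 libraries for 7 of them, the exceptions being Ifnar2, highest in Ikbkb-deleted replicate 1, and Jak1, highest in Irf1 control replicate 3. The same library was the highest for 15.8% of all 16040 genes tested. Without it the log2 fold change of the Ikbkb deletion was positive for all 9 genes, from 0.02 for Ifngr2 to 0.77 for Jak2 and 0.94 for Tyk2, and none was called by edgeR. The cDC1 markers rose in the same fit, with 15 of 15 positive and a median of 1.21, against 11 of 15 and 0.13 with all libraries. That library also had the highest T and NK marker sum, 2151 CPM against 68.5 to 851 CPM in the other 15, a high cDC1 marker sum (9466 CPM) and the lowest mitochondrial share (0.699%). Ikbkb-deleted replicate 1, with a cDC1 marker sum of 9826 CPM, pulled the other way. Leaving it out gave Tyk2, Jak1, Ifnar1 and Ifnar2 their lowest log2 fold changes of any library left out. These were −0.99, −0.24, −0.21 and −0.018. The part of these differences between libraries in the values of the 9 genes was not tested.

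**Figure D3:**
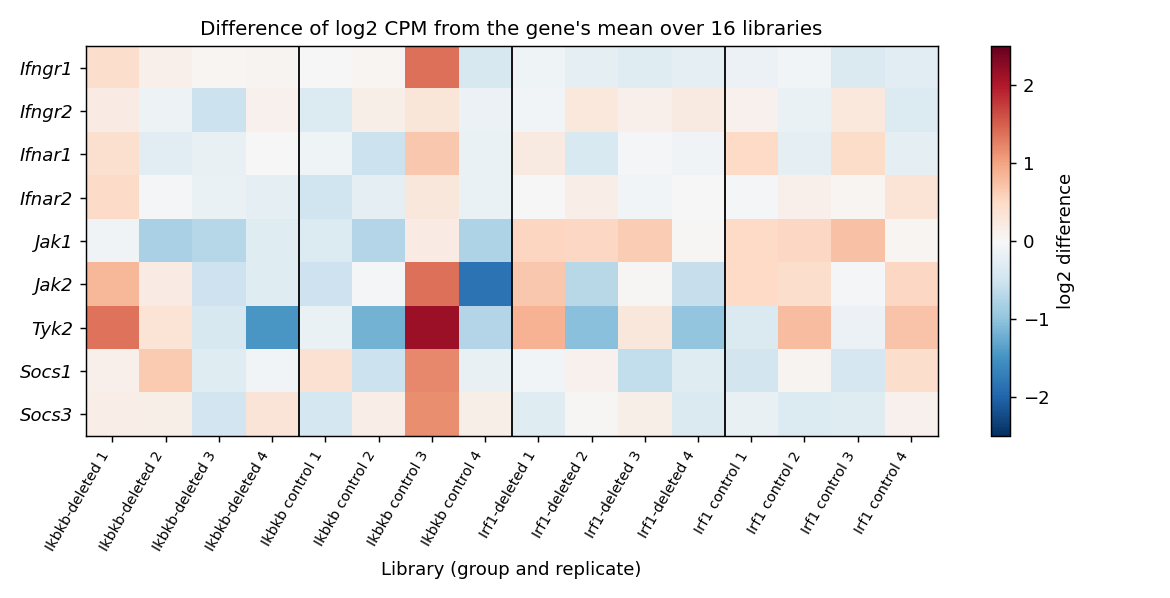
Difference of each library's log2 CPM from the gene's mean over 16 libraries (colour, red higher, blue lower), with libraries in columns by group and replicate. The column of Ikbkb control replicate 3 is red for all 9 genes, and the row of Jak1 is mostly red in the Irf1 set and blue in the Ikbkb set.

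Balances between partner genes were compared within libraries, where no scaling to library size is needed. For Ifngr1 over Ifngr2 the log2 ratio was 1.01 ± 0.25 in the Ikbkb-deleted and 1.01 ± 0.60 in the Ikbkb control libraries, and 0.40 ± 0.22 in the Irf1-deleted and 0.57 ± 0.33 in the Irf1 control libraries (SD, n = 4 each). The largest difference was for Jak2 over Jak1 after Irf1 deletion, at −1.79 ± 0.55 in the deleted and −1.33 ± 0.51 in the control libraries. It was within the spread between replicates by the exact two-sided permutation test over 70 labellings (p = 0.286, adjusted p = 0.947 over 8 tests, where the smallest p the design allows is 0.0286). Adjusted p was at least 0.947 for all 8 ratios, which also covered Ifnar1 over Ifnar2 and Socs1 over Socs3. With that smallest p and 8 tests, no ratio could pass 0.05 after adjustment on its own, even with its groups fully apart.

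**Figure D4:**
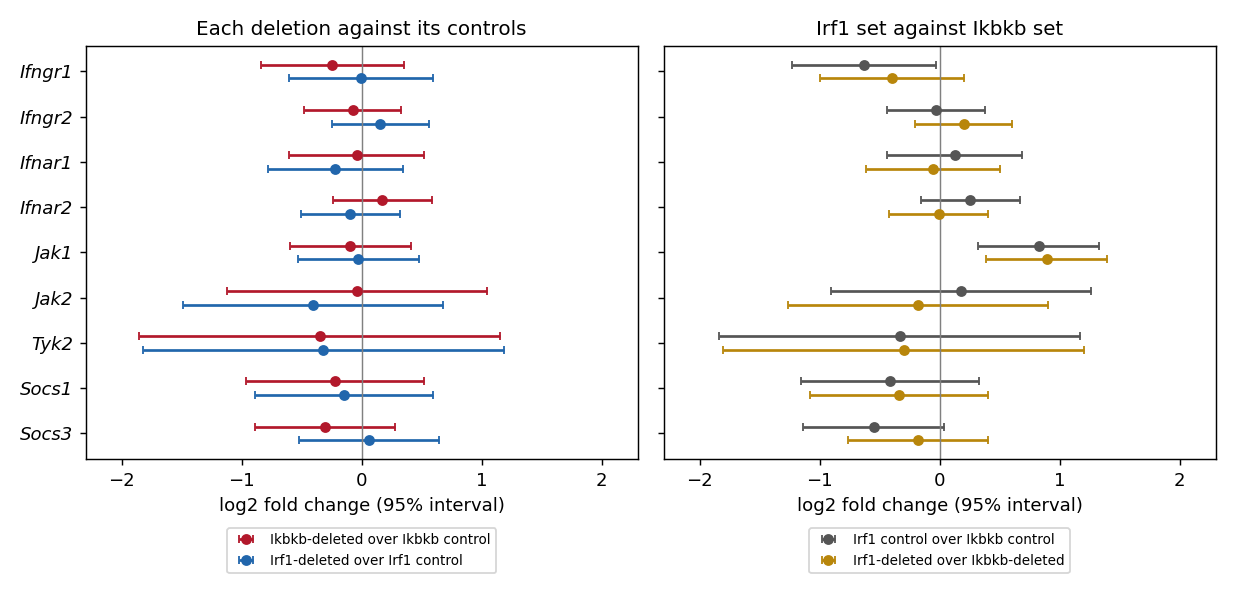
Log2 fold change of each gene with its 95% interval from edgeR's fit: left, each deletion over its controls; right, Irf1 set over Ikbkb set, in control and in deleted libraries. All 18 intervals on the left include 0, those of Jak2 and Tyk2 being the widest, and Jak1 lies above 0 in both comparisons on the right, at 0.83 and 0.89.

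Between the sets, Jak1 was the only one of the 9 genes called. Irf1 controls averaged 353 ± 66.3 CPM and Ikbkb controls 199 ± 66.3 CPM (SD, n = 4 each). The log2 fold change was 0.83 with an SE of 0.24 (adjusted p of edgeR's test 0.0345), with 3 of the 4 Irf1 controls above every Ikbkb control. The background is large, since 12.6% of all genes tested were called in this comparison, 6.74% as higher and 5.84% as lower. Without overlap between the groups, 10.3% were higher and 7.16% lower. In the deleted libraries, a comparison added after the data were seen, Jak1 was again higher, at 346 ± 59.7 CPM in Irf1-deleted and 187 ± 44.8 CPM in Ikbkb-deleted libraries. Its log2 fold change there was 0.89 with an SE of 0.24 (adjusted p of edgeR's test 0.0330). There all 4 Irf1-deleted libraries exceeded all 4 Ikbkb-deleted ones, as they did for 9.02% of all genes, and 8.58% of genes were called, 5.04% as higher and 3.54% as lower. Everything that differs between the sets, the floxed gene included, cannot be told apart. The call for the controls was lost, with edgeR adjusted p of 0.071 to 0.107, on leaving out Ikbkb control replicate 1, 2 or 4 or Irf1 control replicate 1, 2 or 3. That for the deleted groups was lost, with adjusted p of 0.073 to 0.112, on leaving out Ikbkb-deleted replicate 2 or 3 or Irf1-deleted replicate 1, 2 or 3. Both calls were also lost without a filter on low counts (edgeR adjusted p of 0.0613 for controls and 0.0558 for deleted groups) and with the T and NK marker sum as a covariate (0.0778 and 0.0528).

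Ifngr1 differed in the other direction without passing the threshold. Its log2 fold change was −0.63 (SE 0.28, edgeR adjusted p = 0.155) between Irf1 and Ikbkb controls and −0.39 (SE 0.28, adjusted p = 0.422) between Irf1-deleted and Ikbkb-deleted libraries. Between the deleted groups all 4 Irf1-deleted values lay below all 4 Ikbkb-deleted values, as for 8.86% of all genes. Without Ikbkb control replicate 3 the difference between the controls was −0.10.

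Fibroblast and endothelium markers moved with Jak1 between the sets. All 16 had a positive log2 fold change, 9 were called higher in the Irf1 controls and 8 in the Irf1-deleted libraries, and their sum was 24539 ± 9729 CPM in Irf1 controls and 10098 ± 281 CPM in Ikbkb controls (SD, n = 4 each). Postn, an extracellular matrix gene, averaged 2675 ± 1209 CPM in Irf1 controls and 589 ± 139.6 CPM in Ikbkb controls, and Pdgfrb, a receptor of fibroblasts and pericytes, averaged 367 ± 93.8 CPM in Irf1 controls and 130.2 ± 41.2 CPM in Ikbkb controls. T and NK markers had a negative log2 fold change for 18 of 18 in both comparisons of the sets, and cDC1 markers for 12 of 15 between controls and 15 of 15 between deleted groups, with 0 called in either list. Genes of other lists differed as well. Neutrophil markers summed to 746 ± 219 CPM in Irf1 controls and 253 ± 74.8 CPM in Ikbkb controls, and to 668 ± 273 CPM in Irf1-deleted and 234 ± 63.7 CPM in Ikbkb-deleted libraries, and Mmp9, a neutrophil gelatinase gene, was called higher in both comparisons (edgeR adjusted p of 0.0120 and 0.0217). Tcf4, a transcription factor gene of plasmacytoid dendritic cells that other cells also express, was called higher in both (edgeR adjusted p of 0.00669 and 0.00795). Its list was split: of 6 markers of plasmacytoid dendritic cells, 3 were negative between controls and 2 between deleted groups. Of the B cell markers 7 of 7 tested were negative between controls, with Ighm called lower (edgeR adjusted p = 0.0442). Of the 16 macrophage and monocyte markers 10 were negative between controls, with a median of −0.49. Arg1 alone among them was called there, as higher (edgeR adjusted p = 0.0295). Of 10 housekeeping genes, 4 were called lower in the Irf1 controls, among them Rplp0, a ribosomal protein gene, and Pgk1, a glycolytic enzyme gene. Over the 16 libraries Jak1 followed the fibroblast and endothelium sum with Pearson's r of 0.82 (permutation adjusted p = 0.00513) and Spearman's rho of 0.78 (adjusted p = 0.0184, both over 54 relations). No relation was measured within the 8 libraries of the Ikbkb set (r = 0.00064, exact permutation p = 0.999), and within the 8 of the Irf1 set it was positive (r = 0.86, exact permutation p = 0.00786). By rank, rho was −0.14 in the Ikbkb set (exact permutation p = 0.752) and 0.62 in the Irf1 set (exact permutation p = 0.115). Both quantities differ between the sets, and the permutations over 16 libraries did not keep the sets apart. Leaving out the 2 libraries farthest from the median sum, Irf1 control replicates 1 and 3, gave r = 0.78 (permutation p = 0.00151), again over both sets. The part of any of these cells in the Jak1 difference was not tested.

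A total of 54 such relations were computed, of the 9 genes with 6 sums (cDC1, T and NK, macrophage and monocyte, and fibroblast and endothelium markers, and targets of interferon-gamma and of type I interferon). Of these, 13 passed an adjusted p of 0.05 by Pearson's r, 2 by Spearman's rho and the same 2 by both, namely Jak1 with fibroblast and endothelium markers and Tyk2 with cDC1 markers. All 13 were positive. Of the 13, 8 had an unadjusted p under 0.05 within the Ikbkb set, 5 within the Irf1 set, 3 in both, and 5 after leaving out the 2 farthest libraries.

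For Tyk2 with the cDC1 markers, Pearson's r was 0.81 (permutation adjusted p = 0.00513) and Spearman's rho 0.78 (adjusted p = 0.0184) over 16 libraries, r was 0.94 within the Ikbkb set (exact permutation p = 0.00146) and 0.63 within the Irf1 set (exact permutation p = 0.0937), and without Ikbkb-deleted replicate 1 and Ikbkb control replicate 3 it was 0.60 (permutation p = 0.0210). For Jak2 with the same markers r was 0.72 (permutation adjusted p = 0.0155) and rho 0.70 (adjusted p = 0.0643). Within sets r was 0.87 (exact permutation p = 0.00181, Ikbkb) and 0.66 (exact permutation p = 0.0685, Irf1), and without the same 2 libraries 0.56 (permutation p = 0.0401). Ifngr1 with these markers had r of 0.79 (permutation adjusted p = 0.00518) and rho of 0.62 (adjusted p = 0.0748). Within sets its r was 0.84 (exact permutation p = 0.00327, Ikbkb) and 0.74 (exact permutation p = 0.0345, Irf1), and it was 0.51 (permutation p = 0.0653) over the 14 libraries left without those 2.

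Tyk2 also passed with interferon-gamma targets, at r of 0.70 (permutation adjusted p = 0.0212) and rho of 0.64 (adjusted p = 0.0709). This was 1 of the 3 relations that held within both sets, with r of 0.82 (exact permutation p = 0.0126, Ikbkb) and 0.88 (exact permutation p = 0.00680, Irf1), but r was 0.49 (permutation p = 0.0766) without the 2 farthest libraries. With type I interferon targets, Tyk2 had r of 0.61 (permutation adjusted p = 0.0449) and Socs1 0.68 (permutation adjusted p = 0.0244), and neither had an unadjusted p under 0.05 without the 2 farthest libraries. Ifngr1 passed by Pearson's r with T and NK markers, at 0.64 (permutation adjusted p = 0.0449), and with interferon-gamma targets, at 0.69 (permutation adjusted p = 0.0225), but in neither set alone.

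For Socs1 with the sum of 22 interferon-gamma targets, none of them one of the 9 genes, r was 0.76 (permutation adjusted p = 0.00518) and rho 0.65 (adjusted p = 0.0709). Within the sets r was 0.80 (exact permutation p = 0.0182, Ikbkb) and 0.66 (exact permutation p = 0.0877, Irf1), where rho was 0.31 (exact permutation p = 0.462), and without the 2 farthest libraries it was 0.73 (permutation p = 0.00365). Socs1 also followed the T and NK marker sum, with r of 0.77 (permutation adjusted p = 0.00518) and rho of 0.64 (adjusted p = 0.0709). Its r with that sum was 0.78 (exact permutation p = 0.0235) in the Ikbkb set, 0.80 (exact permutation p = 0.0145) in the Irf1 set and 0.58 (permutation p = 0.0318) without the 2 farthest libraries. Socs3 passed for the same sums, with r of 0.62 for the targets and 0.63 for T and NK markers (permutation adjusted p = 0.0449 for both), and the Spearman values, 0.49 and 0.45, did not pass. Within the Irf1 set the r of Socs3 was −0.06 and 0.24, and without the 2 farthest libraries, Ikbkb control replicate 3 among them, 0.38 and 0.31 (permutation p = 0.171 and 0.269), so these relations rest on those libraries.

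**Figure D5:**
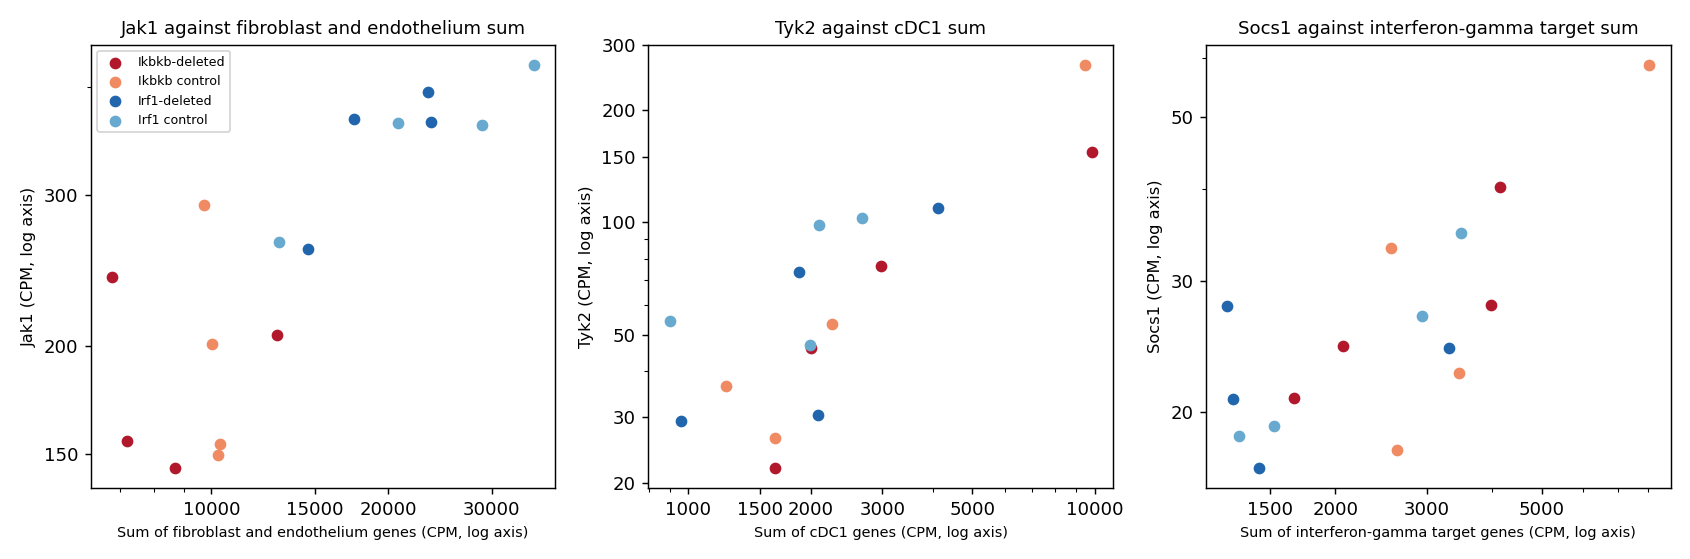
Level of a gene (CPM, log axis) against a summed level (CPM, log axis) in 16 libraries coloured by group: Jak1 with 16 fibroblast and endothelium markers, Tyk2 with 15 cDC1 markers, and Socs1 with 22 interferon-gamma targets. The Irf1-set points form the upper right of the Jak1 panel, and Ikbkb control replicate 3 is the highest point for Tyk2 (265 CPM) and Socs1 (58.8 CPM).

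Of 19 listed interferon genes, 2 of them of type III interferons, which bind another receptor, 7 were in the count table, 12 were not analysed here, and Ifng alone passed the filter. It encodes interferon-gamma, made chiefly by T and NK cells, and averaged 2.07 ± 1.59 CPM in Ikbkb-deleted and 8.49 ± 10.4 CPM in Ikbkb control libraries, and 0.195 ± 0.389 CPM in Irf1-deleted and 1.80 ± 1.75 CPM in Irf1 control libraries (SD, n = 4 each). The log2 fold changes of −2.03 and −3.19 were not called by edgeR (adjusted p = 1 for both), and 3 libraries, all Irf1-deleted, had no Ifng read. Each value leaned on a single library. Without Ikbkb control replicate 3 the value for Ikbkb deletion was −0.69. Without Irf1-deleted replicate 1, the only one of its group with an Ifng read, that for Irf1 deletion was −8.26. The deleted libraries left in that fit had no Ifng read, so the size of this value is not a measured fold. The highest Ifng value, 24.0 CPM, was in Ikbkb controls. Ifnb1, the gene of interferon-beta, had no read in 9 libraries, and Ifnlr1, a receptor chain for type III interferon, none in 15. T and NK markers moved the same way, with a negative log2 fold change for 18 of 18 after Ikbkb deletion (11 of 18 without Ikbkb control replicate 3) and 17 of 18 after Irf1 deletion, none called, and their part in the Ifng values was not tested.

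Among other receptors of the same class, 4 of 8 listed were tested and 0 were called in either deletion. Il10rb, the shared chain of interleukin-10 family receptors that lies between Ifnar2 and Ifnar1, averaged 50.4 ± 4.41 CPM in Ikbkb-deleted and 60.8 ± 14.6 CPM in Ikbkb control libraries, and 41.4 ± 10.1 CPM in Irf1-deleted and 51.1 ± 11.3 CPM in Irf1 control libraries (SD, n = 4 each). Il10ra, the ligand-binding chain for interleukin-10, averaged 69.0 ± 42.3 CPM in Ikbkb-deleted and 100.8 ± 103 CPM in Ikbkb control libraries. F3, the tissue factor gene of the same structural class, was called higher in Irf1 controls than in Ikbkb controls (log2 fold change 1.498, SE 0.42, edgeR adjusted p = 0.0321). Of the gp130 receptors, on which Socs3 acts, 0 of 8 tested were called. Il6st, which encodes gp130, averaged 117 ± 42.3 CPM in Ikbkb-deleted and 119 ± 18.1 CPM in Ikbkb control libraries, and 208 ± 39.0 CPM in Irf1-deleted and 199 ± 69.2 CPM in Irf1 control libraries. Of 9 gp130 ligands 0 were called, among them Osm, at 26.4 ± 4.18 CPM in Ikbkb-deleted and 57.0 ± 54.1 CPM in Ikbkb control libraries.

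The STAT genes and Jak3, substrates and a relative of the 3 kinases, had negative log2 fold changes for 8 of 9 in each deletion, and 0 were called. Without Ikbkb control replicate 3, 2 of the 9 were negative after Ikbkb deletion. Stat3, which carries gp130 signals, averaged 242 ± 76.8 CPM in Ikbkb-deleted and 303 ± 243 CPM in Ikbkb control libraries, and 324 ± 82.4 CPM in Irf1-deleted and 344 ± 33.8 CPM in Irf1 control libraries (SD, n = 4 each). Stat6, which carries interleukin-4 signals, averaged 175 ± 46.8 CPM in Ikbkb-deleted and 198 ± 70.2 CPM in Ikbkb control libraries. The 6 other tested members of the Socs family had 5 negative values in each deletion, with 0 called, and 2 after Ikbkb deletion without that library. Socs6, a family member less tied to cytokine signals, was called higher in Irf1 controls than in Ikbkb controls, at 37.1 ± 4.28 and 21.7 ± 6.45 CPM (log2 fold change 0.77, SE 0.22, edgeR adjusted p = 0.0350).

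Of 13 other genes that restrain JAK and STAT signals, 13 had a negative log2 fold change after Ikbkb deletion and 7 after Irf1 deletion, with 0 called and medians of −0.24 and −0.09, beside −0.02 and −0.02 over all genes tested. Without Ikbkb control replicate 3, 5 of the 13 were negative after Ikbkb deletion and the median was 0.06. Ptpn1, a phosphatase of Jak2 and Tyk2, averaged 107 ± 28.3 CPM in Ikbkb-deleted and 151 ± 98.2 CPM in Ikbkb control libraries. Between the controls, Ptpn2, a phosphatase of Jak1, was called lower in the Irf1 set, at 54.7 ± 7.68 CPM in Irf1 controls and 94.99 ± 17.7 CPM in Ikbkb controls (log2 fold change −0.80, SE 0.19, edgeR adjusted p = 0.0175), in the opposite direction to Jak1. Dusp2, a nuclear phosphatase, was called lower as well (log2 fold change −1.65, SE 0.49, adjusted p = 0.0379). Between the deleted groups Dusp2 was again called lower (log2 fold change −1.63, SE 0.49, adjusted p = 0.0498), and Pias4, an inhibitor of STAT proteins, was called higher (log2 fold change 0.89, SE 0.24, adjusted p = 0.0330).

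No target gene of the pathway was called in either deletion. For 22 interferon-gamma targets the log2 fold change was negative for 20 after Ikbkb deletion and 21 after Irf1 deletion, with medians of −0.81 and −0.47, and for 21 type I interferon targets it was negative for 21 and 21, with medians of −0.95 and −0.58. The values for Ikbkb lean on Ikbkb control replicate 3: the summed interferon-gamma targets were 3987, 4155, 1668 and 2073 CPM in Ikbkb-deleted libraries and 2560, 2623, 8048 and 3462 CPM in Ikbkb controls. Without that library, 14 of 22 interferon-gamma targets were negative, with a median of −0.22, and 18 of 21 type I targets, with a median of −0.30. Without the library labelled Irf1-deleted replicate 1, 21 of 22 and 21 of 21 were negative after Irf1 deletion, with medians of −1.004 and −0.66. In that fit 12 of 15 cDC1 markers were negative, with a median of −0.26, against 2 of 15 and 0.15 with all libraries. T and NK markers were negative for 18 of 18, with a median of −1.42. Over all libraries, T and NK markers and macrophage and monocyte markers moved with the targets. The macrophage and monocyte list had a negative log2 fold change for 14 of 16 and 16 of 16 genes after Ikbkb and Irf1 deletion, with 0 called. The part of any of these cells was not tested. Psmb8, an immunoproteasome subunit gene, averaged 762 ± 386 CPM in Ikbkb-deleted and 905 ± 548 CPM in Ikbkb control libraries, and 295 ± 166 CPM in Irf1-deleted and 329 ± 157 CPM in Irf1 control libraries (SD, n = 4 each). Irf7, a factor induced by type I interferon, averaged 188 ± 109 CPM in Ikbkb-deleted and 411 ± 418 CPM in Ikbkb control libraries. Of 12 targets of Stat3, 10 were negative in each deletion, with 0 called, and 4 after Ikbkb deletion without Ikbkb control replicate 3. Among the targets, Cd274, the gene of PD-L1, was called lower in Irf1 controls than in Ikbkb controls (log2 fold change −2.48, SE 0.76, edgeR adjusted p = 0.0442), as were Fos (−1.19, SE 0.25, adjusted p = 0.00933) and Junb (−1.19, SE 0.34, adjusted p = 0.0328), genes of AP-1 subunits.

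The genes most like each of the 9 over the 16 libraries were taken by Spearman's rho among the 9462 genes whose log2 CPM averaged 3 or more, as a description with no test. Jak1 had the closest match, Sept9 (rho 0.97), a septin gene, followed by Rrp1 (0.95). Tyk2 was followed by Mbnl1 and Akna (0.94 each) and Jak2 by Cadm1 (0.91), an adhesion molecule gene among the cDC1 markers, and Lnpep (0.91). Ifnar2 was followed by Slc38a9 (0.92) and Dhx58 (0.90), the gene of the interferon-induced RNA sensor LGP2. Socs1 was matched by Sept1 (0.89) and Trim14 (0.88), Ifngr1 by Mfsd14b (0.90) and Cpne3 (0.90), and Ifngr2 by Fcgrt (0.90), the neonatal Fc receptor gene, and Vwa1 (0.89). Ifnar1 was matched by Lrrc8c (0.91) and Hsph1 (0.85), and Socs3 by Rmnd1 (0.88) and Rmc1 (0.85). All of these points share the 16 libraries and their mixture of cells.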

How the data were processed

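Unnormalized read counts per Ensembl gene, deposited by the authors for all 16 libraries, were used as given. The submitters' processing notes name mm10, HTSeq 0.6.1p1, STAR 2.5.3a, cutadapt 1.10 and bcl2fastq 2.17.1.14, per the labels; the annotation release and strand setting are not given in the sources used here. Per the labels' protocols, full-length cDNA was amplified by PCR (SMART-Seq v4) and tagmented (Nextera XT) with further PCR, without molecular identifiers. The intervals given here come from edgeR's fit and include the spread between libraries. No interval from counts alone is given. Symbols and coordinates came from GENCODE M21, which matched 32684 of 32697 genes, and promoters from RefSeq.

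All 16 libraries entered 1 quasi-likelihood fit (edgeR 4.0.16, R 4.3.3; TMM; filterByExpr, minimum count 10, minimum total 15), with p adjusted by Benjamini-Hochberg over 16040 genes and called under 0.05. Intervals are the log2 fold change ± the t quantile times SE. A prior count of 2 went into log2 CPM. Relations used 100000 permutations over 16 libraries and all pairings within sets of 8. The lowest chi-square per gene between replicates was 44.9, so none was counted as 1. Named genes are the 9, both targeted genes, per list up to 2 called genes or the 2 most expressed, and the 2 most alike. Alternatives were RLE and upper-quartile scaling, no filter, DESeq2 1.42.0, limma 3.58.1 voom, each set alone, marker covariates and leaving out each library. The counts of list genes without Ikbkb control replicate 3 or Irf1-deleted replicate 1 were added after the data were seen. The fit was tested on data simulated for the Ikbkb deletion, with 200 of 15397 genes changed. Changed genes were picked among those whose log2 CPM averaged 3 or more. The fit recovered 23.4% of 2-fold and 83.1% of 4-fold changes, and 100 of its 101 calls were changed genes. Most 2-fold changes were thus missed, so a lack of calls alone does not show that changes of that size are absent. The 9 genes and the lists were chosen with earlier results of these data known.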

Additional observations from a re-analysis of the deposited data

Results flagged for a closer look

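Of 52 groups of 4 libraries checked for a value far from the rest, 3 held one, and chance alone marks about 1 in 20. Ifngr1 was 291 CPM in Ikbkb-deleted replicate 1, with 222 to 233 CPM in the other 3 Ikbkb-deleted libraries, a gap of 0.840 of the group's range. It was 552 CPM in Ikbkb control replicate 3, with 162 to 223 CPM in the other 3 controls (0.844 of the range). Tyk2 was 265 CPM in the same control library, with 26.3 to 53.4 CPM in the others (0.887 of the range). The libraries concerned are the ones with cDC1 marker sums of 9826 and 9466 CPM; the part of this in the values was not tested.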

How the results depend on the processing

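No paired analysis was possible because replicates are numbered only by accession order, which links no library of one group to one of another. No setting brought any of the 9 genes past the threshold in either deletion. Among edgeR's 0 calls in each contrast of the deletions, DESeq2 called 38 genes (Ikbkb), 6 (Irf1), 12 (difference) and 25 (mean of both). Between Irf1 and Ikbkb controls the count of 2018 became 1199 without a filter, 3146 by DESeq2 and 4130 by voom, and between the deleted groups 1376 became 718, 2477 and 2990. Leaving out 1 library gave 0 to 1 calls for the Ikbkb deletion and for the difference, 0 for the others, 782 to 2404 between controls and 110 to 1776 between deleted groups.

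Signs turned under some settings, also that of Tyk2, whose log2 fold change of −0.35 was the largest of the 9 after Ikbkb deletion. For the Ikbkb deletion, voom gave log2 fold changes of 0.13 (Ifngr1), 0.12 (Ifnar1), 0.011 (Jak1), 0.60 (Jak2), 0.34 (Tyk2), 0.17 (Socs1) and 0.031 (Socs3). The T and NK sum as covariate gave 0.43 (Jak2), 0.66 (Tyk2) and 0.10 (Socs1), the cDC1 sum 0.030 (Jak2) and upper-quartile scaling 0.0050 (Jak2). For the Irf1 deletion the T and NK sum gave 0.085 (Ifngr1) and 0.10 (Socs1), and voom 0.052 (Socs1). The cause of these turns was not tested. Socs3 with interferon-gamma targets had r of −0.056 within the Irf1 set.

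Leaving out 1 library gave, for the Ikbkb deletion, ranges of −0.45 to 0.28 (Ifngr1), −0.19 to 0.033 (Ifngr2), −0.21 to 0.25 (Ifnar1), −0.018 to 0.33 (Ifnar2), −0.24 to 0.14 (Jak1), −0.38 to 0.77 (Jak2), −0.99 to 0.94 (Tyk2), −0.45 to 0.20 (Socs1) and −0.52 to 0.077 (Socs3). For the Irf1 deletion the ranges that crossed 0 were −0.051 to 0.047 (Ifngr1), −0.15 to 0.089 (Jak1), −0.27 to 0.061 (Socs1) and −0.030 to 0.17 (Socs3). Differences of log2 ratios ran from −0.17 to 0.27 (Ifngr1 over Ifngr2), −0.030 to 0.73 (Jak2 over Jak1) and −0.11 to 0.39 (Socs1 over Socs3) for Ikbkb, and from −0.29 to 0.076 (Ifnar1 over Ifnar2) and −0.30 to 0.037 (Socs1 over Socs3) for Irf1.

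The log2 fold change of Jak1 stayed between 0.71 and 1.07 in controls and 0.80 and 1.04 in deleted libraries when 1 library was left out. Alternatives for single genes in the difference and the mean of the deletions are not reported here, and fits of 1 set alone give no comparison between sets. With 4 libraries a group, the intervals given for Jak2 and Tyk2 still include more than 2-fold changes either way in at least 1 deletion.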
